A study of Saccharomyces cerevisiae with 6 samples.

Results

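The 10 genes described here encode the ammonium permeases of budding yeast (MEP1, MEP2 and MEP3), a pair of amino acid permeases (GAP1 and PUT4), a permease and an enzyme of allantoin use (DAL5 and DAL7) and 3 GATA factors (DAL80, GLN3 and GAT1). They were named as a list, chosen by role with earlier results of the same arrays known, and all 10 were found among the 5656 genes to which the platform annotation ties at least 1 probe set of their own. MEP1 and DAL7 were selected on their difference in signal between the groups compared, so every value of that comparison is given for the 10 genes as a description and not as a test. Each gene stands for 1 probe set, and DAL5, which has 3, is given by the brightest.

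The arrays compared cultures of strain W303 that carry the prion [GAR+] with W303 cultures that lack it, called [gar-]. A prion is a protein-based element handed to daughter cells with no change in DNA, and [GAR+] cells use other carbon sources in the presence of a glucose mimic. There were 3 [GAR+] and 3 [gar-] cultures, grown separately in complete synthetic medium with 2% glucose to late exponential phase, at an OD600 of about 0.8, and poly(A) RNA from each was hybridised to 1 array. The labels name no prion donor, mating type or nitrogen source, and no treatment other than the prion state separates the groups.

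Yeast cells take up preferred nitrogen sources such as ammonium and glutamine first and keep the genes for poorer sources low, which is called nitrogen catabolite repression. Under a good supply, Ure2 and the TOR kinase hold the GATA activators Gln3 and Gat1 in the cytoplasm. Under a poor supply they enter the nucleus and raise genes for ammonium, amino acid, proline and allantoin uptake, among them the gene of Dal80, a GATA factor that represses the same targets. Ure2 is itself the protein of another prion, [URE3], in which DAL5 is derepressed, so these genes are a known readout of a prion state in yeast. [GAR+] is a different element and is not known as a form of Ure2.

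Values are linear signals, with the 6 arrays brought to 1 common distribution by quantile normalization, since the deposited signals of the brightest array averaged 2.60 times those of the dimmest. Log2 differences are [GAR+] minus [gar-], taken on log2(signal + 16), which understates differences of dim genes, and an SD is over the 3 cultures of a group. Both arrays numbered 2 stood apart, with scores on the first principal component of 22.0 for [GAR+] culture 2 and 12.4 for [gar-] culture 2, against -10.1 to -7.96 for the other 4 arrays. On the 6 arrays the highest of 16 control probe sets for sequences foreign to yeast or in antisense read 12.7 to 27.6. HXT3, a glucose transporter gene known as the transcript most changed by [GAR+], averaged 59.0 ± 16.3 in [GAR+] and 4103 ± 473 in [gar-] cultures (SD, n = 3 each). In bulk RNA, fewer cells with a transcript and less of it per cell cannot be told apart.

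MEP1 encodes a high-capacity ammonium permease. Its signal was 219, 178 and 202 in [GAR+] cultures 1, 2 and 3, against 409, 324 and 292 in [gar-] cultures 1, 2 and 3. The highest [GAR+] value, 219, was below the lowest [gar-] value, 292, so the groups did not overlap. The means were 200 ± 20.4 in [GAR+] and 342 ± 60.8 in [gar-] cultures (SD, n = 3 each), a ratio of 0.585. The log2 difference was -0.72, and at culture numbers 1, 2 and 3 it was -0.85, -0.81 and -0.50. Without both arrays numbered 2 it was -0.67.

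MEP2 encodes the ammonium permease of highest affinity, which also takes part in the switch to filamentous growth when ammonium is scarce. It read 344, 232 and 338 in [GAR+] cultures 1, 2 and 3, against 385, 356 and 319 in [gar-] cultures 1, 2 and 3. The groups overlapped, and [GAR+] culture 2 alone lay clearly below the others. The log2 difference was -0.22 with that array, and -0.04 without both arrays numbered 2. At culture number 3 the sign was the opposite, at 0.08.

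MEP3 encodes a permease of low affinity and high capacity, and its protein is the closest relative of Mep1. It read 234, 316 and 280 in [GAR+] cultures 1, 2 and 3, against 233, 240 and 212 in [gar-] cultures 1, 2 and 3. The groups overlapped, since [GAR+] culture 1 lay within the [gar-] range and the other two [GAR+] cultures lay above it. The means were 277 ± 40.7 in [GAR+] and 228 ± 14.9 in [gar-] cultures (SD, n = 3 each), with a log2 difference of 0.25, and of 0.19 without both arrays numbered 2.

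The ammonium permease genes thus did not share 1 direction. Subtracting the log2 difference of MEP3 from that of MEP1 gave -0.86, -1.18 and -0.88 at culture numbers 1, 2 and 3. A scale factor of an array cancels in this subtraction, apart from the added 16, and the deposited signals gave -0.88, -1.19 and -0.87. The same subtraction of MEP2 from MEP1 gave -0.70, -0.22 and -0.58, so at each number MEP1 stood lower relative to [gar-] than either of the other permease genes. Since MEP1 was picked for its difference, these values carry no test.

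**Figure D1:**
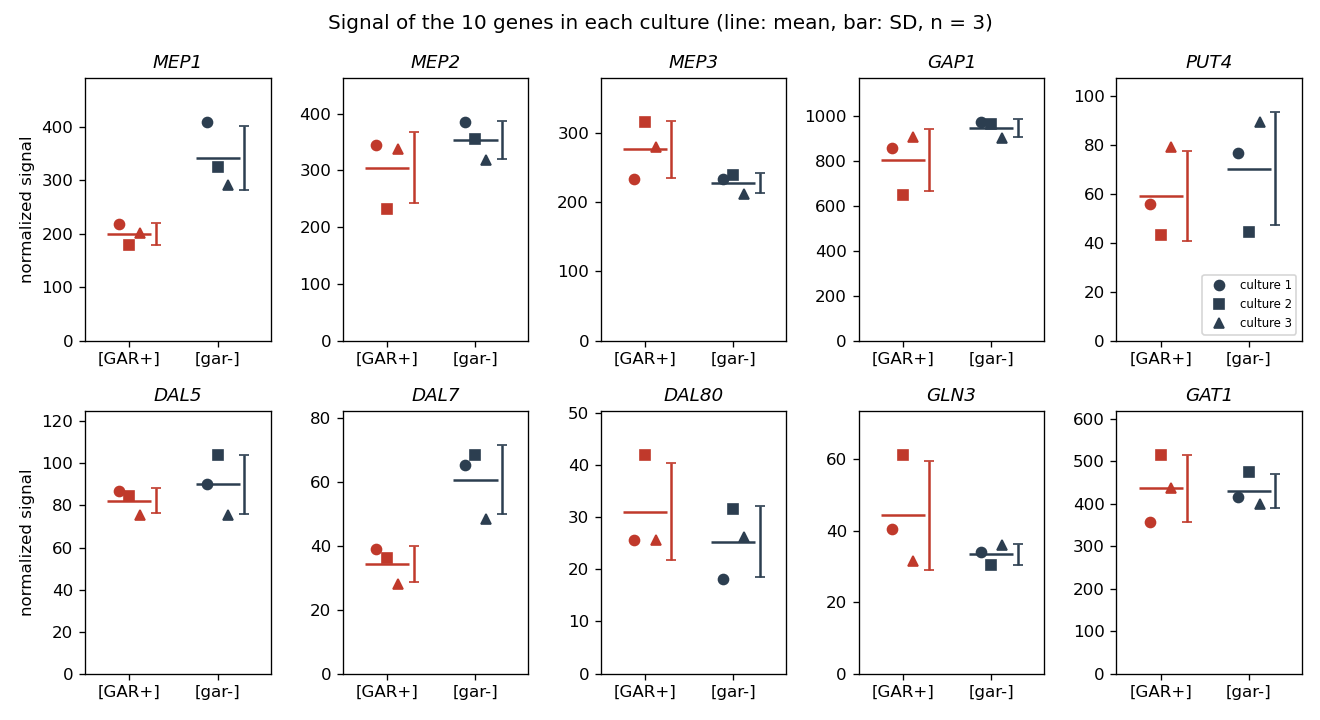
Quantile-normalized signal (vertical axes, linear, from 0) of the 10 genes in the 3 [GAR+] cultures (left) and the 3 [gar-] cultures (right), with the culture number shown by the marker, the mean as a line and the SD as a bar. MEP1 and DAL7 are the genes with no overlap between groups, and for MEP2 and GAP1 the [GAR+] culture 2 array lies below the rest.

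GAP1 encodes the general amino acid permease, which takes up most amino acids when nitrogen is poor. It read 860, 650 and 910 in [GAR+] cultures 1, 2 and 3, against 975, 966 and 904 in [gar-] cultures 1, 2 and 3. As for MEP2, [GAR+] culture 2 was the low array, and at culture number 3 the values were nearly equal. The log2 difference was -0.24, and -0.09 without both arrays numbered 2.

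PUT4 encodes the proline permease. It read 55.7, 43.0 and 79.3 in [GAR+] cultures 1, 2 and 3, against 76.9, 44.6 and 89.4 in [gar-] cultures 1, 2 and 3. Both cultures numbered 2 were low, and the culture number moved this gene more than the group did. At every number the [GAR+] value was the lower of the pair, with log2 differences of -0.37, -0.04 and -0.14, and the groups overlapped.

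DAL5 encodes the permease of allantoate and ureidosuccinate. It read 86.9, 84.3 and 75.5 in [GAR+] cultures 1, 2 and 3, against 90.3, 104 and 75.7 in [gar-] cultures 1, 2 and 3. The groups overlapped and the means, 82.3 ± 5.99 in [GAR+] and 90.1 ± 14.3 in [gar-] cultures (SD, n = 3 each), differed by less than the SD of the [gar-] group. Its other probe sets were dimmer, with means of 27.9 in [GAR+] and 32.4 in [gar-] cultures for the brighter of them and 10.4 and 16.2 for the dimmer, and gave log2 differences of -0.13 and -0.30, against -0.10 for the brightest. The dimmest read above the highest foreign or antisense control on 1 of the 6 arrays. For the brightest, the log2 difference was -0.01 without [gar-] culture 2 and -0.21 without [gar-] culture 3. The spread of DAL5 over the 6 arrays, 0.39 on the log2 scale, was the smallest among the 10 genes and larger than that of 22.2% of the tested probe sets. Without between-array normalization its log2 difference was 0.06, where the median of all probe sets was 0.16. Relative to that median it was -0.10, against -0.11 in the main setting.

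DAL7 encodes a malate synthase that removes the glyoxylate released from allantoin. It read 38.8, 36.1 and 28.0 in [GAR+] cultures 1, 2 and 3, against 65.3, 68.3 and 48.4 in [gar-] cultures 1, 2 and 3. The groups did not overlap, and every value lay above the highest foreign or antisense control of its array. The means were 34.3 ± 5.62 in [GAR+] and 60.7 ± 10.7 in [gar-] cultures (SD, n = 3 each), a ratio of 0.566. The log2 difference was -0.60, evenly spread over the culture numbers at -0.57, -0.69 and -0.55, and was -0.59 without both arrays numbered 2. At this low signal the added constant matters: the log2 difference was -0.80 with 1 in place of 16, and -0.34 with 64.

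None of the 3 GATA factor genes had a lower mean signal in [GAR+] cultures. GAT1, the gene of an activator, read 357, 515 and 437 in [GAR+] cultures 1, 2 and 3, against 417, 475 and 399 in [gar-] cultures 1, 2 and 3, and its log2 difference of 0.01 took both signs when arrays were left out. GLN3, the gene of the other activator, read 40.4, 61.2 and 31.5 in [GAR+] cultures 1, 2 and 3, against 34.0, 30.3 and 36.1 in [gar-] cultures 1, 2 and 3. Its log2 difference of 0.26 rested on [GAR+] culture 2 and was 0.02 without both arrays numbered 2. DAL80, the gene of the repressor, read 25.7, 41.9 and 25.6 in [GAR+] cultures 1, 2 and 3, against 18.1, 31.6 and 26.2 in [gar-] cultures 1, 2 and 3. Its log2 difference of 0.19 was 0.03 without [GAR+] culture 2 and 0.05 without [gar-] culture 1. Its [gar-] culture 1 value lay below the highest foreign or antisense control of that array, 27.6. For all 3 genes the groups overlapped.

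**Figure D2:**
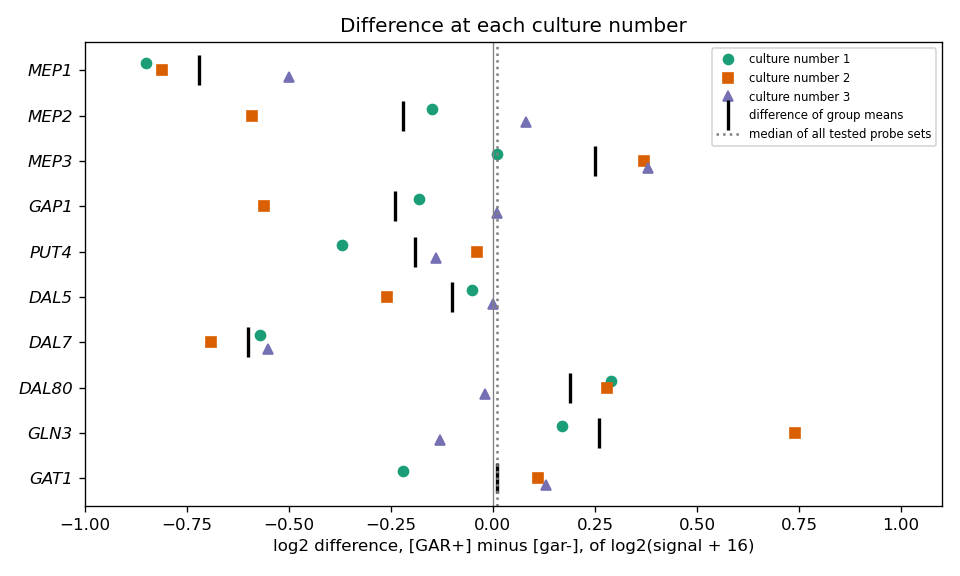
Log2 difference, [GAR+] minus [gar-], of log2(signal + 16) for each of the 10 genes (rows) at culture numbers 1, 2 and 3 (coloured markers) and between group means (black bars), with the median of all tested probe sets as a dotted line. MEP1 and DAL7 lie between -0.85 and -0.50 at every number, while MEP2, GAP1 and GLN3 owe their mean difference mostly to culture number 2.

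As a group, the 10 genes had a median log2 difference of -0.14, with 6 of 10 below 0, against a median of 0.01 and 48.2% below 0 over all 6504 tested probe sets. The median was -0.17, -0.15 and -0.01 at culture numbers 1, 2 and 3. It was -0.04 without both arrays numbered 2, and 0.03 on the deposited scale, where the median of all probe sets was 0.16. The groups did not overlap, with [GAR+] lower, for 2 of the 10 genes and for 4.44% of all probe sets, and with [GAR+] higher for 0 of the 10 and 4.41%. The signal was lower in [GAR+] at all 3 numbers for 4 of the 10 genes, MEP1, PUT4, DAL5 and DAL7, and for 13.5% of all probe sets, and higher at all 3 for MEP3 only, against 15.4%. For PUT4, DAL5 and MEP3 this rested in part on nearly equal signals. In [GAR+] and [gar-] cultures these were 43.0 and 44.6 for PUT4 at number 2, 75.5 and 75.7 for DAL5 at number 3, and 234 and 233 for MEP3 at number 1. In limma, adjusted over all probe sets by the Benjamini-Hochberg method, 1 probe set passed at 0.05, that of HXT3, which is 0.0154% of those tested, and 0 of the 10 genes passed. At an unadjusted p under 0.05 there were 2 of the 10, MEP1 and DAL7, and 2.98% of all probe sets. Because the genes were listed with this comparison known, nothing is read from these counts.

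Over the 6 arrays the 10 genes did not form 1 pattern. Likeness was measured as the root mean square difference between gene-centred log2 profiles, for which 0 is an identical profile, and the median over the 45 pairs of the 10 genes was 0.343. The closest pair was MEP2 and GAP1, at 0.0637, and GAP1 was the 8th nearest to MEP2 among 5655 other genes. MEP3 and GAT1 came next at 0.132, and MEP1 and DAL7 stood at 0.170, a likeness that their choice by the same comparison partly fixes. The least alike were MEP1 and GLN3 at 0.579. All these profiles share the normalization, the groups and the arrays numbered 2.

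**Figure D3:**
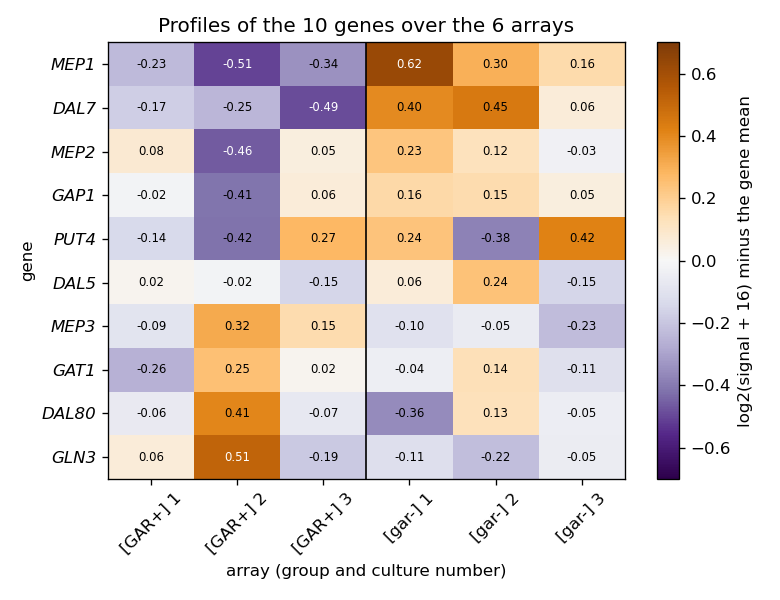
Log2(signal + 16) minus the gene mean, as colour and number, for the 10 genes (rows) on the 6 arrays (columns, [GAR+] left of [gar-]). [GAR+] culture 2 is the lowest array for MEP1, MEP2, GAP1 and PUT4 and the highest for MEP3, GAT1, DAL80 and GLN3.

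The array of [GAR+] culture 2 set many of these values. It was the lowest of the 6 for 4 of the 10 genes, namely MEP1, MEP2, GAP1 and PUT4, and for 22.2% of all probe sets. It was the highest for another 4, MEP3, DAL80, GLN3 and GAT1, and for 26.6% of all probe sets. Thus MEP1, MEP2, GAP1 and PUT4 were at their lowest where MEP3 and the 3 GATA factor genes were at their highest. Of 10 markers of late growth and stress, which report the state of a culture, 8 were also lowest on that array. Their summed signal ranged from 3633 to 4449 in [GAR+] and from 2399 to 5843 in [gar-] cultures, none of the 10 was below the controls on all arrays, and their median log2 difference was -0.20. HSP12, the brightest marker and the one with a log2 difference above 0 (0.31), made up much of these sums. A sum without HSP12 was added after the data were seen. The other 9 markers gave 2095, 855 and 1294 in [GAR+] cultures 1, 2 and 3. In [gar-] cultures 1, 2 and 3 they gave 2673, 1159 and 1615, so this sum was lower in [GAR+] at every number. Such a sum is led by its brightest markers. Taken singly, 6, 9 and 7 of all 10 markers were lower in [GAR+] at culture numbers 1, 2 and 3. Of all 6504 tested probe sets, 3223, 3223 and 3050 were lower at these numbers. At all 3 numbers 3 of the 10 were lower, against 13.5% of all probe sets. The part of culture state in the values of the 10 genes was not tested. Genes specific to mating type a summed to 6166 to 8167 in [GAR+] and 5114 to 6564 in [gar-] cultures, and those specific to mating type alpha to 108 to 138 in [GAR+] and 103 to 116 in [gar-] cultures.

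For each ammonium permease gene, those nearest in profile were taken from the 4545 other genes with a mean signal of at least 50. Members of the 10 genes with such a signal were among these candidates. Nearest to MEP1 were the squalene synthase gene ERG9 at a root mean square difference of 0.060, the ubiquitin ligase gene UBR1 at 0.115 and the ribosomal RNA gene RDN25-1 at 0.136, where the median over all candidates was 0.450. ERG9 read 658, 545 and 553 in [GAR+] cultures 1, 2 and 3, against 1131, 967 and 803 in [gar-] cultures 1, 2 and 3. Nearest to MEP2 were RKR1, MPP6 and MIY3 at 0.046 to 0.059, where the median over all candidates was 0.305. Nearest to MEP3 were SED4, ERT1 and RPS28B at 0.044 to 0.050, where that median was 0.250. None of these 9 genes is an ammonium or amino acid permease gene or a GATA factor gene.

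The allantoin genes were examined next, since DAL7 belongs to a run of neighbours on the chromosome. In the gene table their order is DAL1 (allantoinase), DAL4 (allantoin permease), DAL2 (allantoicase), DCG1 (a nitrogen-regulated gene of unclear function), DAL7 and DAL3 (ureidoglycolate lyase), with no other gene listed between them. All 6 had a log2 difference below 0, against 48.2% of all probe sets, and their median was -0.34. Over genes and culture numbers 17 of the 18 differences were below 0, those of DAL7, chosen on this comparison, among them. The exception was DAL2 at culture number 2, at 0.31. DAL3 read 212, 237 and 204 in [GAR+] cultures 1, 2 and 3, against 286, 304 and 286 in [gar-] cultures 1, 2 and 3, and its groups did not overlap. DCG1 read 61.8, 77.3 and 58.2 in [GAR+] cultures 1, 2 and 3, against 94.5, 89.5 and 78.4 in [gar-] cultures 1, 2 and 3. Its groups barely separated, at 77.3 against 78.4. Over all probe sets, 4.44% had groups without overlap and [GAR+] lower. The differences of DAL1, DAL4 and DAL2 were -0.33, -0.25 and -0.17, with overlapping groups, and without both arrays numbered 2 they were -0.15, -0.32 and -0.44.

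The 6 genes kept their sign on the deposited scale, where their median was -0.17 against 0.16 for all probe sets, and without both arrays numbered 2, where it was -0.44. The run was singled out after its values were seen, and DAL7 is in it by choice, so no test is given for it as a group. Of its genes other than DAL7, 0 passed in limma, with an adjusted p of 1.00 for each, and 1 of them, DAL3, had an unadjusted p under 0.05. DAL5 lies elsewhere in the genome, and its log2 difference was -0.10. The urea transporter gene DUR3 averaged 12.6 ± 1.83 in [GAR+] and 12.6 ± 3.27 in [gar-] cultures (SD, n = 3 each), below the highest foreign or antisense control on all 6 arrays. The activator genes of the allantoin pathway gave 121 ± 11.3 in [GAR+] and 126 ± 27.3 in [gar-] cultures for DAL81, and 148 ± 17.4 and 151 ± 35.4 for DAL82 (SD, n = 3 each).

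**Figure D4:**
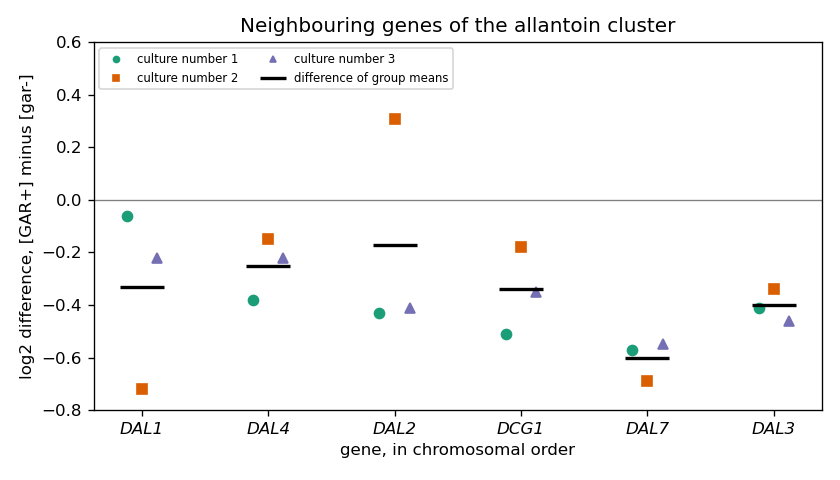
Log2 difference, [GAR+] minus [gar-], of log2(signal + 16) (vertical axis) for the 6 neighbouring allantoin genes in chromosomal order (horizontal axis), at culture numbers 1, 2 and 3 (markers) and between group means (black bars). All 6 bars lie below 0, from -0.60 for DAL7 to -0.17 for DAL2, and 1 of the 18 markers, that of DAL2 at number 2, lies above.

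Beyond the 10 genes, 93 measured genes in 8 lists were tested in limma over all 6504 probe sets. The lists are wider than nitrogen catabolite repression and include retrograde response and filamentous growth genes. Of these 93 genes 0 passed in either direction and 0 with a block for the culture number, while 7, or 7.53%, had an unadjusted p under 0.05, against 2.98% of all probe sets. Their median log2 difference was -0.04, with 55 of 93 (59.1%) below 0, against 48.2% of all probe sets. On the deposited scale 26 of 93 lay below 0, against 20.3% of all probe sets. These lists too were chosen with earlier results of the same arrays known, so nothing is read from these shares. In the list of allantoin and urea genes, 8 of 9 were measured and 0 passed, with a median of -0.21.

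Among 13 regulators of the GATA factors and of nitrogen permeases 0 passed, with a median of 0.04 and 6 of 13 below 0. KOG1, which encodes a subunit of TOR complex 1, averaged 123 ± 16.9 in [GAR+] and 177 ± 19.3 in [gar-] cultures (SD, n = 3 each), with a log2 difference of -0.47 (standard error 0.17, adjusted p = 1.00 in limma). LST8, another TOR complex gene, gave -0.38, with 321, 98.8 and 388 in the [GAR+] cultures, of which number 2 stood low. URE2, whose protein holds Gln3 back, read 443, 481 and 423 in [GAR+] cultures 1, 2 and 3, against 410, 321 and 401 in [gar-] cultures 1, 2 and 3. Its groups barely separated, at 423 against 410. Groups did not overlap, with [GAR+] higher, for 1 of the 13 regulators, URE2, and for 4.41% of all probe sets. With [GAR+] lower, they did not overlap for 1 of the 13, KOG1, and for 4.44% of all probe sets. The log2 difference of URE2 was 0.25 (standard error 0.16, adjusted p = 1.00 in limma). It was 0.10, 0.56 and 0.07 at culture numbers 1, 2 and 3, so number 2 gave most of it. The repressor gene GZF3 averaged 118 ± 20.7 in [GAR+] and 119 ± 7.61 in [gar-] cultures, and NPR1, the gene of a kinase that stabilises nitrogen permeases, 294 ± 39.1 and 279 ± 28.3 (SD, n = 3 each).

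Of the 5 genes of ammonium assimilation 0 passed. The glutamine synthetase gene GLN1 averaged 3272 ± 499 in [GAR+] and 3079 ± 491 in [gar-] cultures, and GDH1, the main glutamate dehydrogenase gene for assimilation, 2376 ± 378 and 2251 ± 52.6 (SD, n = 3 each). For both, the means differed by less than the larger SD. GDH3, the gene of an isoenzyme of Gdh1, gave -0.47, with 79.4, 144 and 68.1 in the [gar-] cultures, of which number 2 stood high. GDH2, whose enzyme breaks glutamate down, gave 0.28 with overlapping groups.

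Of 22 other amino acid permease and sensor genes 0 passed, with 11 below 0 and 11 above 0. The dicarboxylic amino acid permease gene DIP5 read 314, 195 and 284 in [GAR+] cultures 1, 2 and 3, against 484, 528 and 319 in [gar-] cultures 1, 2 and 3, so that the groups barely separated. Its log2 difference was -0.71 (standard error 0.24, adjusted p = 1.00 in limma). The glutamine permease gene GNP1 stood the other way, with 589, 682 and 611 in [GAR+] cultures 1, 2 and 3, against 499, 304 and 506 in [gar-] cultures 1, 2 and 3, a difference of 0.54 (standard error 0.21, adjusted p = 1.00 in limma). Much of that difference came from [gar-] culture 2. The groups did not overlap for GNP1 either. In this list they did not overlap for 3 of 22 genes with [GAR+] lower and for 2 with [GAR+] higher. The shares over all probe sets were 4.44% and 4.41%.

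Of 21 other nitrogen source genes 0 passed, 14 lay below 0 (all probe sets: 48.2%), and the median was -0.05. On the deposited scale 4 of 21 lay below 0, against 20.3% of all probe sets. The aminopeptidase gene APE1 gave -0.42 with 104 in [GAR+] culture 2 and 186 in [gar-] culture 2 as its lowest values, and the GABA transaminase gene UGA1 gave -0.35, lower in [GAR+] at all 3 numbers. The ammonium export gene ATO3 gave 0.31, with a range of 184 to 425 in [GAR+] and 136 to 344 in [gar-] cultures. The retrograde response genes, which answer to glutamate supply, had a median of -0.11, with CIT2 at -0.66 and IDH2 at 0.51 on opposite sides of 0. Those of filamentous growth had a median of -0.13, with MGA1 at -0.54 and PHD1 at -0.32, both transcription factor genes. In these 3 lists, of 3, 11 and 10 measured genes, 0 passed.

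**Figure D5:**
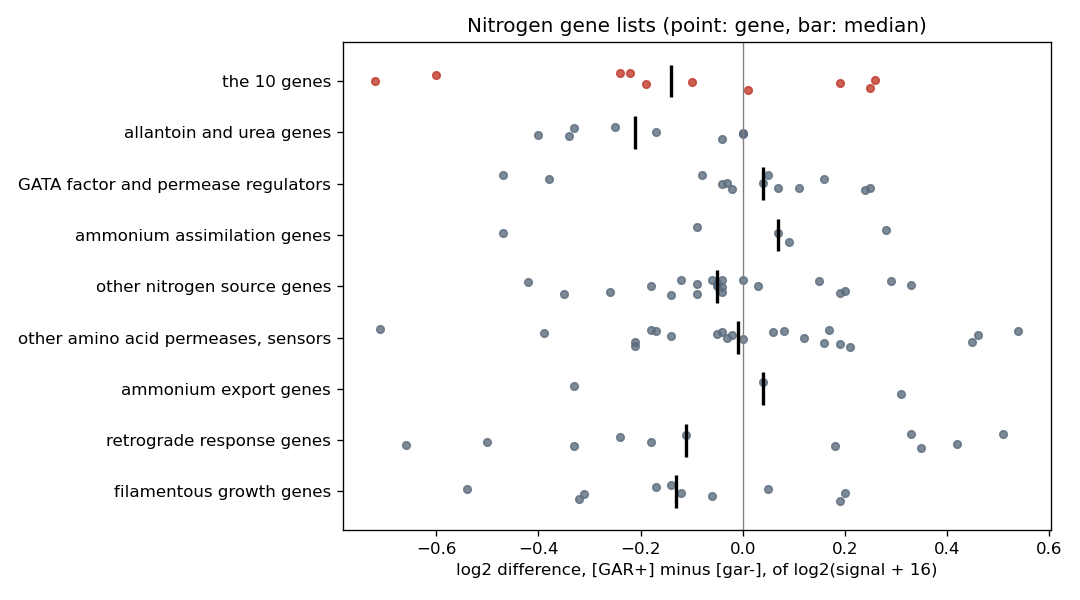
Log2 difference, [GAR+] minus [gar-], of log2(signal + 16) (horizontal axis) for each gene (points) of the 10 genes and of the 8 other nitrogen lists (rows), with the list median as a bar. The points of every list except the allantoin and urea genes lie on both sides of 0, and the medians run from -0.21 for the allantoin and urea genes to 0.07 for ammonium assimilation.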

How the data were processed

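The deposited table holds 1 linear intensity per probe set and array for 6 arrays. The submitters' processing notes name MAS5 and GCOS as tools. How the arrays were scaled is not given in the sources here, nor are versions. Probe sets were named through the platform annotation of 2016 and updated against the gene table of assembly R64: 6504 of 9335 had 1 gene and were tested, 328 had several and 2503 were unnamed. All 6504 matched. No genome build is named, so the gene table gave only names and gene order.

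All 9335 probe sets were quantile-normalized, 16 was added and log2 taken. lmFit and eBayes with a trend on intensity (limma 3.58.1, R 4.3.3) compared 3 [GAR+] with 3 [gar-] arrays, two-sided, with Benjamini-Hochberg adjustment over 6504 probe sets. The steps were tested on simulated data. Precision is limited by how few arrays there are: a log2 difference had a median standard error of 0.179. Alternatives changed the normalization, constant, filter on low signal, trend, probe set choice, block and arrays used.

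After group means were subtracted, the pairs of arrays with 1 number correlated at 0.322, 0.347 and 0.346, all over the limit of 0.1 set for pairing, and arrays of different numbers at -0.311 to 0.0751. What a number stands for is not in the labels.

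The 10 genes and the other lists were chosen with earlier results of these data known. The naming rule takes the 10 genes, HXT3, up to 3 nearest profiles per ammonium permease gene and, per list where 0 passed, the 2 largest differences at a mean signal of at least 50. Named outside it, after their values were seen, were DAL1, DAL2, DAL4, DAL81, DAL82, DUR3, HSP12, URE2, GZF3, NPR1, GLN1 and GDH1. DUR1,2, under that name or its synonyms, had no probe set of its own and was not analysed here.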

Additional observations from a re-analysis of the deposited data

How the results depend on the processing

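HXT3 was the 1 probe set that passed, and 0 of the 10 genes and of the other nitrogen genes tested passed, under all 15 alternatives, among them the replicate block, which gave 1 passing probe set and the same median of -0.14. The median log2 difference of the 10 genes moved beyond the spread between culture numbers to 0.03 on the deposited scale (all probe sets: 0.16) and to -0.04 with both arrays numbered 2 left out. Relative to the median of all probe sets it was -0.15 in the main setting and -0.13 on the deposited scale. Without both arrays numbered 2 it was -0.05 on that relative measure. With 1 array left out in turn the median of the 10 genes itself ranged from -0.18 to -0.07, the last without [GAR+] culture 2. The cause was not tested. Over 147 values of single genes under these alternatives, 6 changed sign, 1 for DAL5 and 5 for GAT1. The change for DAL5 was on the deposited scale. There DAL5 lay at -0.10 relative to the median of all probe sets, against -0.11 in the main setting. MEP1 ranged from -0.83 to -0.55 and DAL7 from -0.80 to -0.34, both below 0 throughout, and MEP3 from 0.16 to 0.43. DAL5 ranged from -0.21 to 0.06 and DAL80 from 0.03 to 0.30. PUT4 ranged from -0.42 to -0.00 and GLN3 from 0.02 to 0.42. Of the 147 values, 9 moved beyond the spread between culture numbers, 5 for DAL7, 3 for PUT4 and 1 for DAL5. MEP2 and GAP1 came as close to 0 as -0.04 and -0.09. With a minimum mean signal of 50, DAL7, DAL80 and GLN3 were left out, and 7 of the 10 genes and 77 of the 93 others were tested. Signals near the controls, as for DAL80 and DUR3 and on single arrays for DAL1 and DAL2, limit what their differences can show.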
